A study of Homo sapiens with 4 samples.

Results

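The epithelial microRNAs examined here were the 5 mature miRNAs of the miR-200 family (hsa-miR-200b-3p, hsa-miR-200c-3p, hsa-miR-429, hsa-miR-200a-3p and hsa-miR-141-3p), together with hsa-miR-203a-3p and hsa-miR-205-5p. They were taken by name from the small RNA sequencing counts of extracellular vesicles (EVs). All 7 were found among the 539 miRNAs listed for both replicates. The EVs were shed by MDA-MB-231, a long-established human line of triple-negative breast cancer with a mesenchymal-like character, labelled wild type and of epithelial cell type. Per the labels, the cells were grown in DMEM with 10% fetal bovine serum and then kept for 12 h either in EV-free DMEM (group 231 EV) or in medium lacking glucose (group 231 -G EV). EVs were pelleted at 110000 × g for 70 min. Each group had 2 replicates, and the number stood for a way of making the library as well. For number 1, modifications were stripped from the RNA beforehand and inserts of 14 to 40 nt were kept (the pretreated libraries). For number 2, libraries were made with the NEBNext small RNA kit (the NEBNext libraries), and the labels also name a TruSeq kit for handling the RNA. Pair 1 and pair 2 below are the 2 libraries of the same number, so preparation and every other difference between the pairs cannot be told apart. The study's methods say that EVs came from cells in EV-free medium, but neither they nor the labels state this for the glucose-free medium by name. The labels do not say that replicates came from separate cultures.

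The miR-200 family holds epithelial cells in their epithelial state by repressing ZEB1 and ZEB2, the transcription factors that silence E-cadherin during epithelial-mesenchymal transition, and ZEB1 and ZEB2 repress the family in turn. MiR-203 is abundant in skin and other stratified epithelia, where it limits the proliferative potential of progenitors. MiR-205 belongs to basal and stratified epithelium and also targets ZEB1 and ZEB2. Mesenchymal-like breast cancer lines are known for low levels of the miR-200 family.

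The seed of a miRNA, bases 2 to 8, sets which transcripts it pairs with, and the 5 family members fall into a pair of seed groups. Their mature sequences are shown because single base differences decide the group and because reads of such alike miRNAs must be told apart by a few bases. Sequences are from RefSeq (GRCh38.p14), 5′ to 3′, with the seed in capitals.
hsa-miR-200b-3p: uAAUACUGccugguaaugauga
hsa-miR-200c-3p: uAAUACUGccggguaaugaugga
hsa-miR-429: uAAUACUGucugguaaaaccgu
hsa-miR-200a-3p: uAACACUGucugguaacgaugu
hsa-miR-141-3p: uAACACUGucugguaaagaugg
hsa-miR-203a-3p: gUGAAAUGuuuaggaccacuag
hsa-miR-205-5p: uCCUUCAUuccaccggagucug
Counted from 1 at the 5′ end, hsa-miR-200b-3p and hsa-miR-200a-3p differ within the seed by U4C. Within the first seed group, hsa-miR-200b-3p and hsa-miR-200c-3p differ over the 22 positions compared by U11G and A22G. Within the second, hsa-miR-200a-3p and hsa-miR-141-3p differ by C17A and U22G. No other listed miRNA with a RefSeq sequence carried the seed of any of the 7. Counts of members that differ by 2 bases depend on how the authors' matching treated mismatches, which the sources used here do not give.

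Seed and genomic position group the family differently. MIR200B, MIR200A and MIR429 lie on the plus strand of chromosome 1 within 1984 bases, with the mature miRNAs at chr1:1167160-1167181, chr1:1167916-1167937 and chr1:1169055-1169076. Their hairpins overlap no other gene in the GENCODE annotation used. MIR200C and MIR141 lie on chromosome 12 within 493 bases, with mature miRNAs at chr12:6963742-6963764 and chr12:6964155-6964176, both in intronic sequence of the long non-coding RNA MIR200CHG on the same strand. Each cluster thus holds members of both seed groups. Hsa-miR-203a-3p lies at chr14:104117469-104117490 on the plus strand, where MIR203A is overlapped by MIR203B on the opposite strand. Hsa-miR-205-5p lies at chr1:209432166-209432187 on the plus strand, and its hairpin overlaps exons of the non-coding host transcript MIR205HG.

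Library totals were 18397 reads in 231 EV and 15597 reads in 231 -G EV of replicate 1, against 224966 and 170894 reads in replicate 2. Levels are given as reads and as counts per 1000000 reads of the library (CPM), where 1 read equals 54.4 and 64.1 CPM in replicate 1 and 4.45 and 5.85 CPM in replicate 2. All 7 miRNAs are 22 or 23 nt long, so no length correction was made. Intervals of levels are 95% Wilson intervals and those of ratios are exact 95% intervals. Both cover counting error alone, because amplified copies of one molecule cannot be recognised in these counts. A single miRNA, hsa-miR-182-5p, took 51.0% of 231 EV replicate 1 and 2.73% of 231 -G EV replicate 1, against 0.254% and 0.250% in replicate 2, so ratios in pair 1 are also given on totals that exclude it, which for the marker lists, seed groups and clusters was an alternative chosen after seeing the data.

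The 7 miRNAs were minor cargo in all 4 libraries. Summed, they took 21 reads or 0.114% (0.0747 to 0.174) of 231 EV replicate 1 and 91 reads or 0.583% (0.475 to 0.716) of 231 -G EV replicate 1. In replicate 2 they took 195 reads or 0.0867% (0.0753 to 0.0997) of 231 EV and 35 reads or 0.0205% (0.0147 to 0.0285) of 231 -G EV. The 231 -G EV library was thus the higher one in pair 1 and the lower one in pair 2, beyond counting error in each. In bulk EV RNA, fewer EVs that carry a miRNA and fewer copies per EV cannot be told apart. Against a list of 8 miRNAs known from mesenchymal-like breast cancer cells, such as hsa-miR-125b-5p, hsa-miR-100-5p and hsa-miR-221-3p, they were few. For each read of the 7, pair 1 held 5.33 and 1.90 reads of that list, and pair 2 held 145 and 520 (231 EV first). The gap between the 2 sets of markers was therefore wide in the NEBNext libraries and narrow in the pretreated ones.

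**Figure D1:**
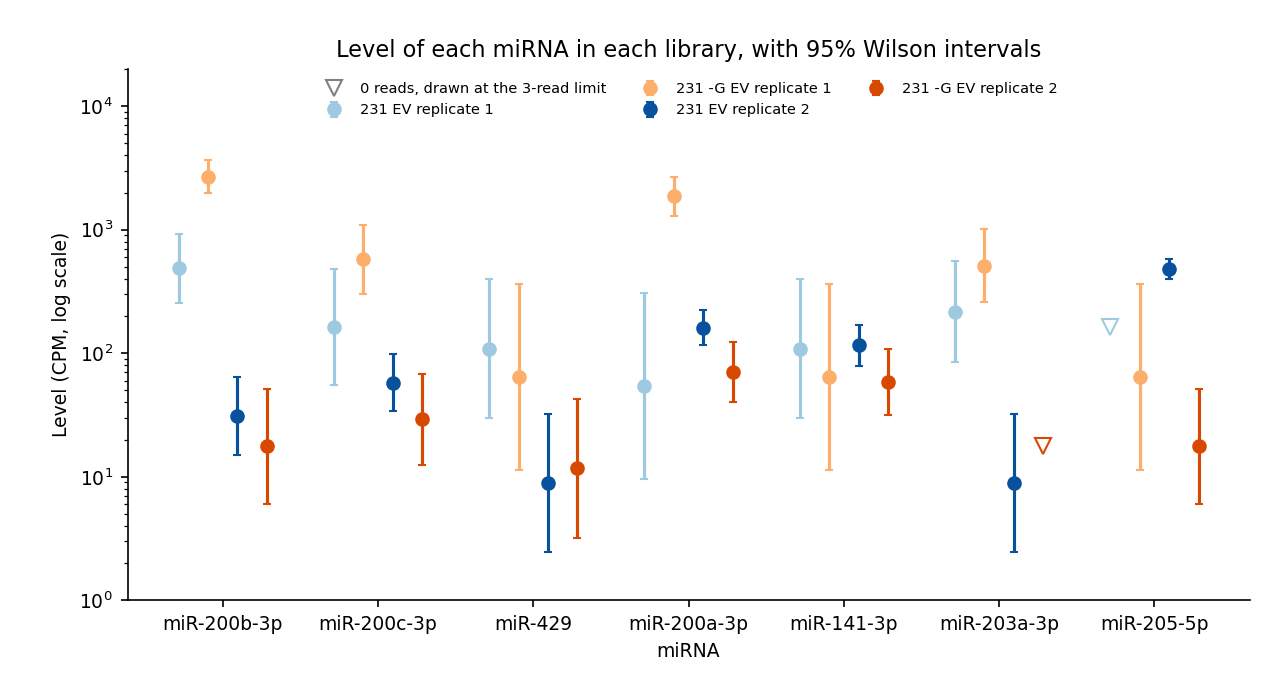
Level of each of the 7 miRNAs (CPM, log axis) in each of the 4 libraries, with 95% Wilson intervals; open triangles mark 0 reads and are drawn at the limit that 3 reads set. Hsa-miR-200b-3p and hsa-miR-200a-3p are highest in 231 -G EV replicate 1 (2693 and 1859 CPM), and hsa-miR-205-5p is highest in 231 EV replicate 2 (485 CPM).

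Hsa-miR-200b-3p, a chromosome 1 member of the first seed group, had 9 and 42 reads (489 and 2693 CPM) in pair 1, with 231 EV given first here and below, and 7 and 3 reads (31.1 and 17.6 CPM) in pair 2. Both pretreated libraries stood above both NEBNext libraries, and 231 -G EV replicate 1 stood above all others. In that library this miRNA had more reads than 93.5% of the 539 miRNAs, of which 270 had 0 reads there. Within pair 1 the share of reads was 5.50-fold higher in 231 -G EV (2.64 to 12.9, Fisher's exact test with Benjamini-Hochberg adjustment, adjusted p = 3.14e-06). On totals excluding hsa-miR-182-5p the ratio was 2.77 (1.33 to 6.48, adjusted p = 0.0442). In pair 2 the ratio of 231 -G EV to 231 EV was 0.564, with an interval of 0.0941 to 2.47 that spans no difference.

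Hsa-miR-200a-3p, its neighbour on chromosome 1 with the second seed, had 1 and 29 reads (54.4 and 1859 CPM) in pair 1, and 36 and 12 reads (160 and 70.2 CPM) in pair 2. It was the highest of the family in both NEBNext libraries, with intervals that overlap those of hsa-miR-141-3p, while in 231 EV replicate 1 it was a single read. The ratio in pair 1 was 34.2 (5.67 to 1397, Fisher's exact test, adjusted p = 8.50e-08), and 17.2 (2.86 to 704, adjusted p = 0.000705) on totals excluding hsa-miR-182-5p. In pair 2 it was 0.439 (0.208 to 0.863), which did not pass Fisher's exact test after adjustment over 618 features (p = 0.0125, adjusted p = 0.0652). The adjusted p was 0.0494 when this exact test and the totals were limited to miRNAs listed for both replicates.

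Hsa-miR-200c-3p, the chromosome 12 member of the first seed group, had 3 and 9 reads (163 and 577 CPM) in pair 1, and 13 and 5 reads (57.8 and 29.3 CPM) in pair 2. The order of the media turned between the pairs, as for both miRNAs above. The ratios were 3.54 (0.883 to 20.3) in pair 1 and 0.506 (0.141 to 1.51) in pair 2, and both intervals include 1. The ratio in pair 1 was 1.78 (0.445 to 10.2) on totals excluding hsa-miR-182-5p.

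Hsa-miR-141-3p, its partner on chromosome 12, had 2 and 1 reads (109 and 64.1 CPM) in pair 1, and 26 and 10 reads (116 and 58.5 CPM) in pair 2. It was lower in 231 -G EV in each pair, but pair 1 rests on 3 reads. The ratio in pair 2 was 0.506 (0.218 to 1.09, Fisher's exact test, adjusted p = 0.255). Hsa-miR-429, the third chromosome 1 member, was at the edge of detection, with 2 and 1 reads in replicate 1 and 2 and 2 reads in replicate 2. No ratio is given for it.

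Hsa-miR-203a-3p had 4 and 8 reads (217 and 513 CPM) in pair 1, and 2 and 0 reads in pair 2, where a count of 0 allows up to 3 reads, or 17.6 CPM (Wilson upper bound 22.5 CPM). Like hsa-miR-200b-3p it was higher in both pretreated libraries than in both NEBNext ones. The ratio in pair 1 was 2.36 (0.632 to 10.7, Fisher's exact test, adjusted p = 0.755), and 1.19 (0.318 to 5.39) on totals excluding hsa-miR-182-5p.

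Hsa-miR-205-5p had 0 reads in 231 EV replicate 1, which allows up to 3 reads, or 163 CPM (Wilson upper bound 209 CPM), and 1 read in 231 -G EV replicate 1. It had 109 reads (485 CPM, 402 to 584) in 231 EV replicate 2 and 3 reads (17.6 CPM, 5.97 to 51.6) in 231 -G EV replicate 2. The only library with more than 3 reads of it was therefore 231 EV replicate 2, where it made up 55.9% (48.9 to 62.7) of the reads of all 7. In pair 2 it was 27.6-fold lower in 231 -G EV (9.20 to 136, Fisher's exact test, adjusted p = 1.14e-21). Among the 221 features with at least 20 reads in pair 2, only 1, a predicted miRNA without a miRBase name, had a lower ratio, a rank looked up after the values were seen. Pair 1 holds a single read of hsa-miR-205-5p, too few for a ratio. The fall thus rests on 1 pair of libraries.

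**Figure D2:**
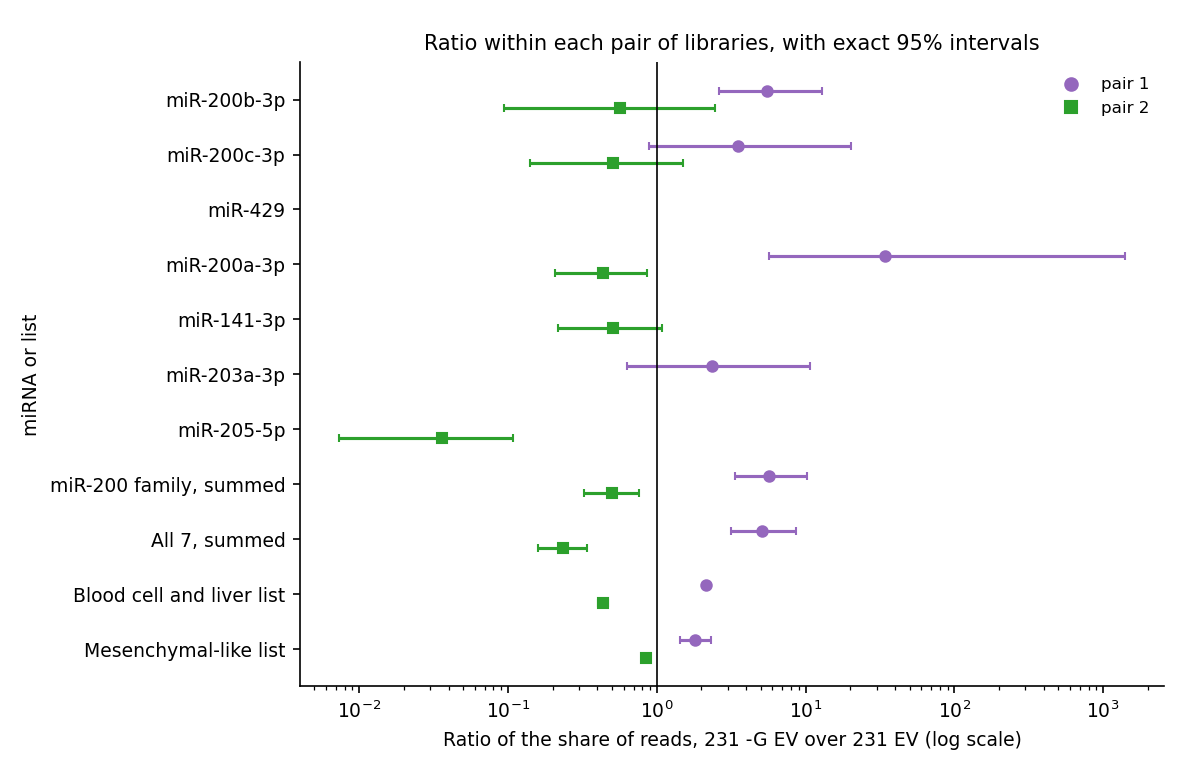
Ratio of the share of reads in 231 -G EV to that in 231 EV (log axis) within pair 1 (circles) and pair 2 (squares), with exact 95% intervals, for the 7 miRNAs, their sums and 2 other lists; a ratio with 3 reads or fewer in both libraries is not drawn. The sum of the 7 lies at 5.11 in pair 1 and 0.236 in pair 2, on opposite sides of 1.

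Counted together, 2 of the 7 miRNAs passed Fisher's exact test as higher and 0 as lower in the 231 -G EV library of pair 1, where 7.91% of the 670 miRNAs with a read were higher and 1.79% were lower. On totals excluding hsa-miR-182-5p the same 2 passed, against 2.69% of 669 miRNAs higher and 5.08% lower. In pair 2, 0 were higher and 1 was lower, where 9.87% of the 618 features were higher and 8.74% were lower. Of the 154 miRNAs above 0 in all 4 libraries, 35 passed as higher and 2 as lower in pair 1. In pair 2, 35 of the 154 passed as higher and 41 as lower. On totals excluding hsa-miR-182-5p, 11 of 153 such miRNAs passed as higher and 10 as lower in pair 1. These tests compare 2 libraries and not the media. The ratio differed between the pairs for 2 of the 7, hsa-miR-200a-3p (adjusted p = 1.21e-08) and hsa-miR-200b-3p (adjusted p = 0.0231), by an exact test of equal odds ratios, which passed for 13.9% of the 295 miRNAs tested. On totals excluding hsa-miR-182-5p, the adjusted p of this exact test was 2.93e-05 for hsa-miR-200a-3p and 0.364 for hsa-miR-200b-3p, and 8.16% of 294 miRNAs passed.

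The study listed enriched miRNAs by a fold change above 1.5, and its methods also name DESeq2 with a fold and a false discovery threshold. With the first rule applied to CPM plus 1 and required in both pairs, 0 of the 7 were higher in 231 -G EV and 1, hsa-miR-141-3p, was lower, with 2 and 1 reads in pair 1, while 7.24% of the 539 miRNAs were higher and 6.68% were lower. Only 295 of the 539 had a read in each pair, and the others cannot pass either this rule or the next. The opposite pattern, over 1.5-fold higher in pair 1 and lower in pair 2, was met by 5 of the 7 and by 9.09% of the 539. This last count was added after the values had been seen, and 2 of the 5, hsa-miR-203a-3p and hsa-miR-205-5p, meet it through a pair with at most 3 reads in each library. On totals excluding hsa-miR-182-5p it was met by 4 of the 7, without hsa-miR-203a-3p, and by 6.51% of 538. The median log2 fold over the 7, on the CPM plus 1 scale, was 1.82 in pair 1 and -0.97 in pair 2. Over the 154 miRNAs above 0 in all 4 libraries these medians were 0.66 and -0.03. The medians in pair 1 on totals excluding hsa-miR-182-5p were 0.83 for the 7 and -0.31 for 153 such miRNAs.

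Across both pairs, edgeR's quasi-likelihood fit, blocked on replicate, covered 384 miRNAs, all 7 included, and called 0 of them (0%). Of the 384, 5 had an unadjusted p under 0.05, and DESeq2 and limma also called 0. With this block, the spread of a miRNA's own counts comes only from how its ratio differs between the pairs. The 0 calls therefore cannot show that levels were unchanged. The log2 fold change was 1.09 (SE 1.21) for hsa-miR-200b-3p, 1.25 (SE 1.36) for hsa-miR-200a-3p and 0.32 (SE 1.39) for hsa-miR-200c-3p, the last of which was negative with TMM scaling or on totals excluding hsa-miR-182-5p. The lowest unadjusted p of the 7 was that of hsa-miR-205-5p, with a log2 fold change of -3.54 (SE 1.82, edgeR adjusted p = 0.999). Its adjusted p ranged from 0.505 to 1.000 over the alternatives, and its sign turned under limma. For the other 6 the standard error was larger than the log2 fold change itself.

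The make-up of the miR-200 family differed between the replicate numbers for hsa-miR-200b-3p and for its seed group. Hsa-miR-200b-3p took 52.9% (31.0 to 73.8) and 51.2% (40.6 to 61.7) of the family's reads in pair 1, but 8.33% and 9.38% (3.24 to 24.2) in pair 2. The first seed group, hsa-miR-200b-3p, hsa-miR-200c-3p and hsa-miR-429, took 82.4% (59.0 to 93.8) and 63.4% (52.6 to 73.0) in replicate 1, against 26.2% (18.0 to 36.5) and 31.2% (18.0 to 48.6) in replicate 2. For this seed group the intervals of the pretreated libraries do not meet those of the NEBNext libraries, while within each pair the intervals of the 2 media overlap. Within pair 2 the ratios of 231 -G EV to 231 EV lay close together, at 0.598 (0.253 to 1.32) and 0.467 (0.273 to 0.771) for the first and second seed group, and 0.497 (0.267 to 0.886) and 0.506 (0.259 to 0.939) for the chromosome 1 and chromosome 12 clusters. In pair 1 the seed groups stood further apart, at 4.38 (2.39 to 8.56) and 11.8 (3.67 to 60.4), with overlapping intervals. On totals excluding hsa-miR-182-5p they stood at 2.21 (1.21 to 4.31) and 5.94 (1.85 to 30.4). In pair 1 the clusters stood at 7.08 (3.81 to 14.3) and 2.36 (0.735 to 8.80), with overlapping intervals, and at 3.57 (1.92 to 7.22) and 1.19 (0.370 to 4.43) on totals excluding hsa-miR-182-5p. The main change of make-up within a pair was that of hsa-miR-200a-3p in pair 1, from 5.88% (1.05 to 27.0) to 35.4% (25.9 to 46.2) of the family, with intervals that meet at their ends. Its share in pair 2 was 42.9% and 37.5%, with intervals that overlap that of 231 -G EV replicate 1. Hsa-miR-200c-3p took between 11.0% and 17.6% of the family in all 4 libraries.

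**Figure D3:**
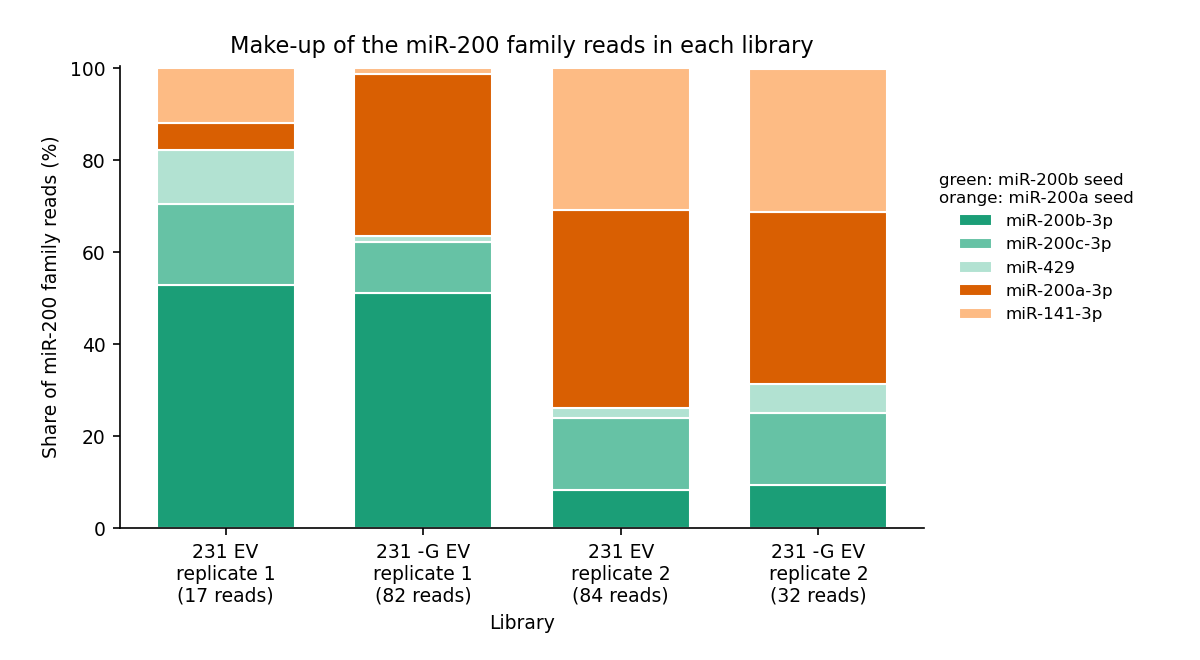
Share of the miR-200 family's reads (%) taken by each of its 5 mature miRNAs in each library, with the number of family reads under each bar; greens share the seed of miR-200b and oranges that of miR-200a. The first seed group takes 82.4% and 63.4% of the bars of replicate 1 and 26.2% and 31.2% of those of replicate 2.

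Of 8 other arms and copies of these hairpins looked for, 5 were listed, each with at most 5 reads in a library. Hsa-miR-200a-5p, listed for replicate 1 alone, had 4 and 5 reads, so in 231 EV replicate 1 this arm had more reads than hsa-miR-200a-3p with its 1 read. Of hsa-miR-200b-5p a single read was found, in the pretreated 231 -G EV library, and hsa-miR-141-5p had 0 in all 4. Hsa-miR-205-3p, listed for replicate 1 alone, had 3 and 1 reads there, against 0 and 1 of hsa-miR-205-5p. Hsa-miR-203b-3p, from the gene opposite MIR203A and also listed for replicate 1 alone, had 1 and 0 reads. 

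Some markers of other sources, though not all, went in the same direction as the summed 7 miRNAs in each pair. A list of 8 miRNAs known from blood cells and liver, which serum can carry over into EV preparations, took 20.2% and 43.3% of the reads of the pair 1 libraries, nearly all of it hsa-miR-451a, the red blood cell miRNA. It took 1.17% and 0.513% in pair 2. Of its members, 7 of 8 were higher in 231 -G EV in pair 1, of which 4 passed Fisher's exact test, against 7.91% of all miRNAs. In pair 2 all 8 were lower and passed it, against 8.74% of all. Of the 154 miRNAs above 0 in all 4 libraries, 113 were higher in pair 1, of which 35 passed. In pair 2, 79 of the 154 were lower, of which 41 passed. When hsa-miR-182-5p was excluded from the totals, 5 of the 8 were higher in pair 1 and 2 passed. Of 153 miRNAs above 0 in all 4 libraries, 61 were then higher and 11 passed as higher, against 2.69% of all 669 miRNAs. Without hsa-miR-451a the list stood at 7284 and 24556 CPM in replicate 1 and at 10393 and 4734 CPM in replicate 2, ratios of 3.37 (2.76 to 4.14) and 0.456 (0.420 to 0.494). The direction in each pair was that of the summed 7, whose ratios were 5.11 (3.15 to 8.65) and 0.236 (0.160 to 0.340). The pair 1 ratios on totals excluding hsa-miR-182-5p were 1.70 (1.39 to 2.08) for the list without hsa-miR-451a, 1.08 (1.04 to 1.13) for all 8 of the list and 2.58 (1.59 to 4.36) for the 7. Relative to the summed list without hsa-miR-451a in place of the library total, the 7 stood at 1.52 (0.892 to 2.67) in pair 1 and 0.519 (0.348 to 0.754) in pair 2, with the counting error of the list included. That scaling was chosen after seeing the data, and none was made to the full list of 8. Without hsa-miR-205-5p, the member with the most reads in pair 2, the ratio of the other 6 on library totals in pair 2 was 0.490 (0.316 to 0.743). The part of serum in these results was not tested.

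Counted by member, the other lists also leaned higher in pair 1 and lower in pair 2. The median log2 folds of CPM plus 1 in pair 1 and pair 2 were 0.62 and -0.42 for the mesenchymal-like list, 1.74 and -0.73 for 5 fibroblast and smooth muscle miRNAs, 1.22 and -0.14 for 8 other epithelial miRNAs and 1.40 and -1.30 for the blood and liver list. In pair 1 these became -0.36, 0.75, 0.64 and 0.41 when hsa-miR-182-5p was excluded, the first of them turning direction. Summed levels are set by a few abundant miRNAs. The mesenchymal-like list stood at a ratio of 1.82 (1.43 to 2.33) in pair 1 and 0.846 (0.830 to 0.862) in pair 2. The pair 1 ratio turned to 0.918 (0.720 to 1.18) on totals excluding hsa-miR-182-5p. The fibroblast and smooth muscle list, mainly hsa-miR-143-3p, summed to lower levels in 231 -G EV in both pairs, at 0.612 (0.521 to 0.718) and 0.487 (0.425 to 0.558), and at 0.308 (0.262 to 0.362) in pair 1 on totals excluding hsa-miR-182-5p. The other 4 of that list, with 8 and 26 reads in pair 1, stood at 3.83 (1.69 to 9.80) in pair 1, or 1.93 (0.849 to 4.94) on such totals, and at 0.494 (0.397 to 0.611) in pair 2. Other epithelial miRNAs, 8 listed, were set in pair 1 by hsa-miR-182-5p, with a summed ratio of 0.0833 (0.0769 to 0.0902). Without it the ratio was 5.90 (4.31 to 8.22) in pair 1, or 2.97 (2.17 to 4.14) when the totals also excluded it, led by hsa-miR-215-5p with 1 and 145 reads, and 0.971 (0.877 to 1.08) in pair 2. The interval of these other epithelial miRNAs in pair 2 thus lay above that of the 7.

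**Figure D4:**
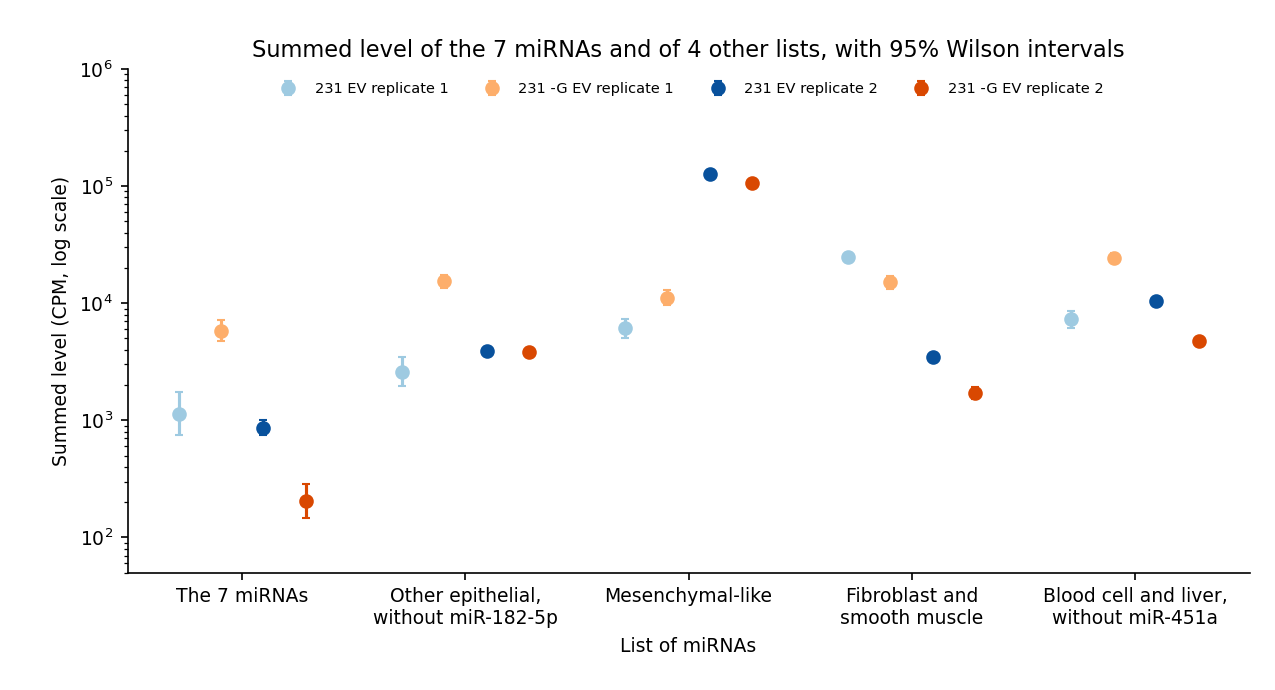
Summed level (CPM, log axis) of the 7 miRNAs and of 4 lists in each of the 4 libraries, with 95% Wilson intervals; the epithelial list is drawn without hsa-miR-182-5p and the blood and liver list without hsa-miR-451a. The 7 miRNAs and the blood and liver list are both higher in 231 -G EV in pair 1 (5834 and 24556 CPM) and lower in pair 2 (205 and 4734 CPM).

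Of the 54 other miRNAs with at least 10 reads in each library, the 3 whose centred log2 CPM profile over the 4 libraries lay nearest to that of the summed 7 were hsa-miR-10b-5p (distance 1.43), hsa-miR-99a-5p (1.43) and hsa-miR-144-3p (1.58), against a median distance of 3.71. Hsa-miR-10b-5p, one of the mesenchymal-like list, had 24 and 60 reads in pair 1 and 59 and 15 in pair 2. Hsa-miR-99a-5p had 52 and 283 and then 167 and 82 reads. Hsa-miR-144-3p, which shares a transcript with hsa-miR-451a, had 13 and 13 and then 52 and 15 reads. With 4 libraries this is a description.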

How the data were processed

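Small RNA of EVs was sequenced in 4 libraries, 2 of 231 EV and 2 of 231 -G EV. The authors deposited whole-number read counts per mature miRNA, with CPM values for replicate 1 and TPM values for replicate 2 beside them. Deposited CPM and TPM alike were checked against the counts and are the count over the library total times 1000000, so CPM computed from the counts was used throughout. The study's methods describe trimming, removal of other RNA classes, alignment with Bowtie2 and matching to miRBase, and the submitters' processing notes name FastQC, cutadapt, Bowtie, Bowtie2, edgeR, StringTie and hg38; steps per replicate are not given in the sources used here.

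Each replicate had its own list (1315 and 843 features, 539 in both). Counts were tested with edgeR 4.0.16 (R 4.3.3), library totals as deposited, with the replicate number as a block, over the 384 miRNAs listed for both replicates with reads in 2 or more libraries. Calls are adjusted p under 0.05 (Benjamini-Hochberg). The pairing came from the labels, where a number marks a shared preparation; the 2 libraries of a number deviated together from the group means, with a correlation of 0.59. Reads were compared within pairs by two-sided Fisher's exact tests and between pairs by an exact test of equal odds ratios (SciPy 1.17.1). Those exact tests cover counting error alone. Standard errors and p-values of edgeR, DESeq2 and limma measure the spread between these libraries, which may be technical. The edgeR standard error was derived as the absolute log2 fold change over the square root of the quasi-likelihood F statistic. No ratio is given where both libraries held 3 reads or fewer; folds of CPM plus 1, used for the fold rule, the medians and the fold of a single pair, include such pairs. DESeq2 1.42.0, limma 3.58.1, TMM, other filters, totals, thresholds and pseudocounts were alternatives. The edgeR fit and both exact tests were tested on simulated data.

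The 7 miRNAs, the marker lists and the tests were chosen with earlier results of these data known. All 7 and the listed other arms of their hairpins were named; the nearest profiles were the 3 with the smallest Euclidean distance of centred log2(CPM + 1), and up to 3 miRNAs per list were named by highest mean CPM.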

Additional observations from a re-analysis of the deposited data

Results flagged for a closer look

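The -G EV to EV ratio differed between the pairs for hsa-miR-200a-3p (adjusted p = 1.21e-08, exact test of equal odds ratios over 295 miRNAs), with ratios of 34.2 in pair 1 and 0.439 in pair 2. It also differed for hsa-miR-200b-3p (adjusted p = 0.0231, the same exact test), with ratios of 5.50 and 0.564. That call is lost on totals excluding hsa-miR-182-5p (adjusted p = 0.364, the same exact test), where the ratio in pair 1 is 2.77. The pairs differ in library preparation and in depth, and these cannot be told apart. For hsa-miR-200a-3p the ratio in pair 1 rests on 1 read in 231 EV.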

How the results depend on the processing

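No alternative gave a call for any of the 7 miRNAs across both pairs, and the fit without the replicate block also called 0 of 384. Among all miRNAs tested, 1 was called on totals excluding hsa-miR-182-5p and 1 when miRNAs above 0 in at least 1 library were kept, against 0 otherwise. TMM scaling moved the median log2 fold change of all miRNAs from 0.20 to -0.14. The log2 fold change changed sign for hsa-miR-200c-3p (-0.13 with TMM scaling, -0.16 on totals excluding hsa-miR-182-5p), for hsa-miR-203a-3p (-0.34 and -0.40 in the same settings, -0.87 with DESeq2, -1.04 with limma) and for hsa-miR-205-5p (0.66 with limma). With 1 pair left out the log2 fold of CPM plus 1 in the other pair, without a test, ranged from -0.79 to 2.46 for hsa-miR-200b-3p, from -0.96 to 1.82 for hsa-miR-200c-3p, from -0.75 to 0.36 for hsa-miR-429, from -1.18 to 5.07 for hsa-miR-200a-3p, from -3.31 to 1.23 for hsa-miR-203a-3p and from -4.71 to 6.02 for hsa-miR-205-5p. Those of hsa-miR-429, that of hsa-miR-203a-3p in pair 2 and that of hsa-miR-205-5p in pair 1 rest on at most 2 reads per library and cannot be read as changes. By the fold rule, leaving out a pair gave 0 to 5 of the 7 higher (21.7% and 33.8% of the 539) and 2 to 6 lower (18.7% and 28.9%), and a threshold of 2 gave 0 lower (4.64%). In pair 2, totals over miRNAs listed for both replicates gave 2 of the 7 called by Fisher's exact test (fewer features tested, of which 12.9% were higher and 12.5% lower). The ratio differed between the pairs for 1 of the 7 on totals excluding hsa-miR-182-5p (8.16% of all). The summed ratio in pair 1 was 2.58 on such totals and 2.85 with TMM scaling. In alternatives chosen after seeing the data, it was 2.81 relative to the mesenchymal-like list and 1.52 relative to the blood and liver list without hsa-miR-451a. In pair 2 the summed ratio was 0.490 without hsa-miR-205-5p and 0.519 relative to the blood and liver list without hsa-miR-451a. The cause of these shifts was not tested. In replicate 1 a member with 0 reads may hold up to 163 or 192 CPM, above most levels in replicate 2.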
